A study of Mus musculus with 2 samples.

Results

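The 6 transcripts described here are BC018473, St6galnac1, Gm10320, Slc15a2, Trim30c and Irgc1, out of 32285 listed in each of 2 droplet single-cell libraries of mouse lung. They were selected on their UMI totals (unique molecular identifiers, each standing for 1 captured RNA molecule) over all barcodes, as transcripts nearly absent from one library. The totals bear this out for 4 of the 6: BC018473, St6galnac1, Gm10320 and Slc15a2 were nearly absent from the LPS_MCZ library, whereas Trim30c and Irgc1 had UMIs in 774 or more LPS_MCZ cells and 729 or more LPS cells each. Because those totals chose the transcripts, the values over all cells are given as a description. With 1 library per group, no test between the groups was possible.

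The LPS_MCZ library came from mice given lipopolysaccharide (LPS, a bacterial cell wall component that inflames the lung) and an intraperitoneal injection of miconazole (MCZ, an azole antifungal), whose dose reads 0.2 mg/kg in the label of the library and 1 mg/kg in the design text. The LPS library came from mice given LPS. All mice were male ICR animals aged 6 to 8 weeks, an outbred stock in which animals differ in the alleles they carry, and the left lower lung lobes of every animal in a group were pooled into 1 library. How many animals were pooled, how much LPS they received and which cell came from which animal are not stated in the labels, so treatment, library and the pooled animals cannot be told apart.

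The levels are given cell type by cell type, to show which differences between the libraries were shared by the cell types. The transcripts differ in kind. BC018473 is annotated as an antisense noncoding RNA. St6galnac1 encodes a sialyltransferase of the Golgi that caps the first sugar of O-linked glycans, as on mucins. Gm10320 is a predicted gene whose sequence is nearly that of Sec61b, a subunit of the channel that moves new proteins into the endoplasmic reticulum. Slc15a2 (PEPT2) encodes a proton-coupled carrier of short peptides, known from kidney and from airway and alveolar epithelium. Trim30c belongs to the TRIM30 cluster, whose best-known member Trim30a is induced by interferon and restrains NF-kB signalling, and Irgc1 belongs to the immunity-related GTPases but is known in the mouse mainly from testis.

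On the GRCm38 build with GENCODE M21 annotation, BC018473 lies at chr11:116752167-116759373 on the plus strand and St6galnac1 (9 exons) at chr11:116765025-116775507 on the minus strand, with their 3′ ends facing each other 5652 bases apart. Slc15a2 (22 exons) lies at chr16:36750177-36784962, Trim30c at chr7:104382065-104400837 and Irgc1 at chr7:24431922-24452297, all on the minus strand. Gm10320 (2 exons) lies at chr13:98489348-98492001 on the minus strand. The stretch of BC018473 below is the exon of 156 bases held by all 4 of its annotated isoforms (chr11:116754334-116754489, plus strand), shown because it marks the transcript whose levels differed most.

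BC018473 exon: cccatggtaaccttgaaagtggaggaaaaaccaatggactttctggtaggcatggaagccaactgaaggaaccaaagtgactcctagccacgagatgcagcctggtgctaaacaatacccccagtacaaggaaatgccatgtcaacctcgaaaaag

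The other pair shows how far reads of Gm10320 can be told from those of Sec61b. Over 474 of the 527 bases of Gm10320 the transcripts were 98.312% identical, and over 286 aligned coding bases they differed at 3. The stretches below are 102 coding bases of Gm10320 (chr13:98489621-98489722, minus strand) and of Sec61b (chr4:47480131-47480232, plus strand), each written 5′ to 3′ with the single mismatch in capitals, which is G29A with the base of Sec61b first and positions counted from 1 at the 5′ end of the stretch. Counts of Gm10320 are uncertain for this reason.

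Gm10320: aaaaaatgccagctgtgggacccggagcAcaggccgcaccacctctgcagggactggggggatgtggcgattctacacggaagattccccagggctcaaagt
Sec61b: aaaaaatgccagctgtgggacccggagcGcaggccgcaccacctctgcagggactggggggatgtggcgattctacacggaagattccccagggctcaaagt

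St6galnac1 has a near-copy as well, the unprocessed pseudogene Gm11735 at chr11:116739062-116749833 on the minus strand, which was 97.976% identical over 1581 of 2392 bases and ends 2334 bases before BC018473 starts. Gm11735 is not analysed here. No copy matched over a comparable length was found for the other transcripts: the closest to Trim30c was Trim30b, 85.1% identical over 542 of 1716 bases. For Slc15a2 only a transcript of 430 bases was compared, which was 97.1% identical to Gm47407 over 103 bases. Irgc1 overlaps the gene Gm36159, and Slc15a2 the gene Gm8425, each on the opposite strand.

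After filtering, 8314 LPS_MCZ cells and 12074 LPS cells were compared, with 68005975 and 89042766 UMIs and medians of 6180 and 5809.5 UMIs per cell. Levels are UMIs per 1e+06 UMIs of the library or cell class (CPM), ratios are log2 of LPS_MCZ over LPS, and intervals are 95% intervals that cover counting error only, not differences between mice. A count of 0 is read against a limit of 3 UMIs, and a fold against it is the value at that limit, not a lower bound. Cells fell into 20 classes, of which 15 were named from marker genes as "-like" classes and 5 stayed clusters with a number. The make-up of the libraries differed: neutrophil-like cells were 44.7% of LPS_MCZ cells and 60.1% of LPS cells, and unnamed cluster 2, which expressed neutrophil genes, was 24.6% of LPS_MCZ cells and 3.03% of LPS cells. The libraries shared 243 cell barcodes, and leaving these cells out moved no ratio over all cells beyond its counting interval.

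BC018473 had 227 UMIs in the LPS_MCZ library and 82701 in the LPS library, or 3.34 CPM against 929 CPM. Its log2 ratio was -8.12 (interval -8.31 to -7.93), a 278-fold difference. UMIs of it were found in 80 of the LPS_MCZ cells (0.962%) and in 6110 of the LPS cells (50.6%). St6galnac1, the sialyltransferase next to it, had 13 UMIs (0.191 CPM) in LPS_MCZ cells and 879 (9.87 CPM) in LPS cells, a log2 ratio of -5.69 (interval -6.61 to -4.91).

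Gm10320 had 17 UMIs (0.250 CPM) in LPS_MCZ cells against 768 (8.63 CPM) in LPS cells, a log2 ratio of -5.11 (interval -5.90 to -4.42). Each of its 17 LPS_MCZ UMIs was in a cell of its own, while 439 LPS cells held it. Slc15a2, the peptide carrier, had 13 UMIs (0.191 CPM) in LPS_MCZ cells against 505 (5.67 CPM) in LPS cells, a log2 ratio of -4.89 (interval -5.81 to -4.10). St6galnac1, Gm10320 and Slc15a2 thus rest on 13 to 17 UMIs in the LPS_MCZ library, few against its depth, whereas BC018473 has more.

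Trim30c and Irgc1 were of another order. Trim30c had 3058 UMIs (45.0 CPM) in 1489 LPS_MCZ cells against 9200 UMIs (103 CPM) in 3631 LPS cells, a log2 ratio of -1.20 (interval -1.26 to -1.14). Irgc1 was higher in the LPS_MCZ library, with 1013 UMIs (14.9 CPM) in 774 LPS_MCZ cells against 885 UMIs (9.94 CPM) in 729 LPS cells, a log2 ratio of 0.58 (interval 0.45 to 0.72). Neither was near absent from a library, so the name of the set does not describe these 2. Intervals of the 2 libraries were apart for all 6 transcripts, as they were for 16.3% of the 15501 genes with at least 50 UMIs in the lower direction and 23.3% in the higher one, so separate intervals alone set none of the 6 apart.

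**Figure D1:**
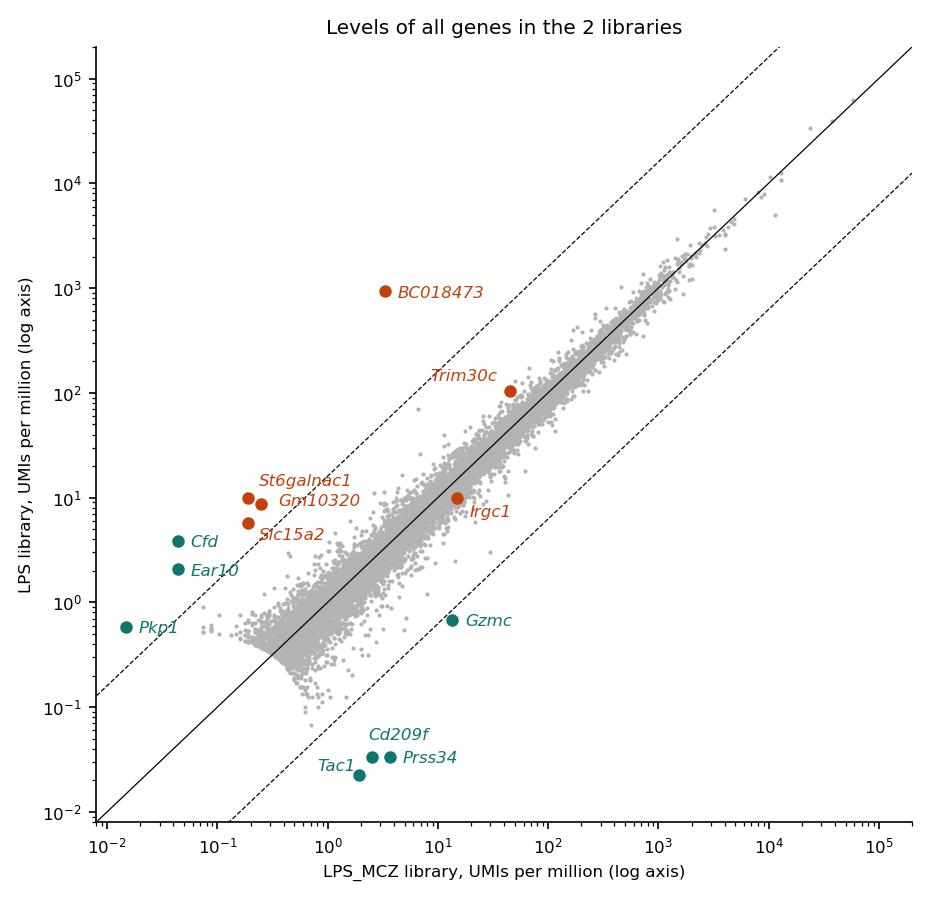
Levels of the 15501 genes with at least 50 UMIs, in CPM in the LPS_MCZ library (x) and the LPS library (y), both on log axes; the solid line marks equal levels, dashed lines 16-fold differences, orange points the described transcripts and green points the other genes beyond 16-fold (0 UMIs drawn at 3 UMIs). BC018473 stands farthest from the line at 929 CPM in LPS cells, and Trim30c and Irgc1 lie inside the dashed lines.

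The size of the ratio separated 4 of them from nearly all genes. Over the 15501 genes the median log2 ratio was 0.04 with an SD of 0.47, and 11 genes (0.071%) differed by 16-fold or more in either direction. Lower in the LPS_MCZ library by that much were 7 genes (0.0452%), and BC018473, St6galnac1, Gm10320 and Slc15a2 were 4 of those, by the very totals that chose them. Gzmc was the one nearest the limit on the inside, at a log2 ratio of 4.31 (921 UMIs in LPS_MCZ cells against 61 in LPS cells), with Slc15a2 next at -4.89. Just outside were Celf6 (-3.63, 5 UMIs against 81) and Fstl4 (3.56, 99 UMIs against 11).

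In how their UMIs were spread over cells, the 4 differed from the other 7 genes beyond the limit. The transcripts were chosen with earlier results of these data known, so this spread may not be independent of the choice and is a description. The 10 highest LPS cells held 2.29% of the UMIs of BC018473, 5.57% of those of St6galnac1, 9.90% of those of Gm10320 and 10.5% of those of Slc15a2. In contrast, all 346 UMIs of Cfd, a complement protease, were in 1 LPS cell, and the 52 LPS UMIs of Pkp1 were in 4 cells. Ear10, a ribonuclease of alveolar macrophages, had 184 UMIs in 50 LPS cells, 70.1% of them in its 10 highest cells.

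On the other side, Prss34, a mast cell and basophil protease, had 250 UMIs in 5 LPS_MCZ cells. Tac1 had 130 UMIs in 6 such cells and Cd209f 173 in 7. The 921 UMIs of Gzmc, a granzyme, were in 27 LPS_MCZ cells, 98.2% of them in the 10 highest. All 7 therefore depended on a few cells or on 1 scarce cell type, while the 4 transcripts came from 317 to 6110 cells in 14 to 20 classes.

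**Figure D2:**
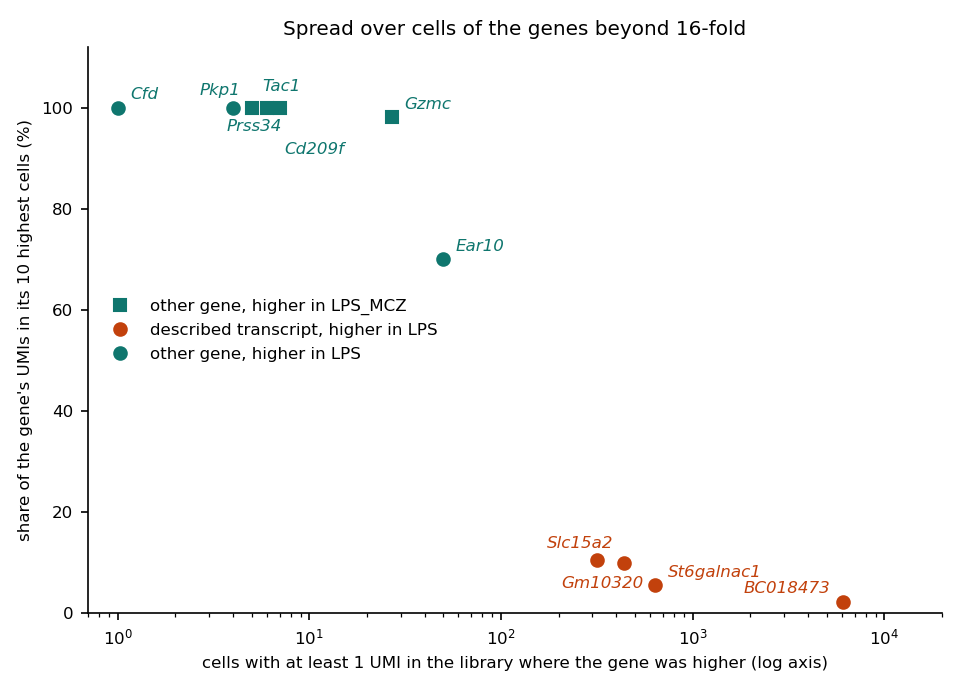
For each of the 11 genes beyond 16-fold, the number of cells with at least 1 UMI in the library where the gene was higher (x, log axis) and the share of its UMIs held by its 10 highest cells there (y, percent); orange points are the described transcripts, green circles other genes higher in LPS and green squares other genes higher in LPS_MCZ. The 4 described transcripts lie at the lower right, at 317 to 6110 cells and 2.29% to 10.5%.

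BC018473 was lower in LPS_MCZ cells in all 20 classes, with no overlap of the counting intervals in any of them, and 12 classes had 0 UMIs in the LPS_MCZ library. Across classes, between 4.61% and 20.5% of genes had intervals apart in that direction (median 9.08%). In neutrophil-like cells, where 12.3% of genes did so, BC018473 stood at 5.83 CPM in LPS_MCZ cells against 1593 CPM in LPS cells. Cluster 2 had 4.46 CPM against 1649 CPM, and erythroid-like cells 11.8 CPM, the highest LPS_MCZ level of any class, against 746 CPM. The LPS_MCZ counts by class of the 4 nearly absent transcripts are bounded by the low totals that chose them. Their counts of classes are therefore a description.

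The difference was also seen away from neutrophils. In T cell-like cells BC018473 had 0 UMIs in 295 LPS_MCZ cells against 1445 UMIs (249.9 CPM) in 849 LPS cells. In this class 4.97% of genes had intervals apart in the lower direction. The T cell-like level of BC018473 was 202-fold lower at the limit set for a count of 0 (upper end of the log2 interval -7.36). In NK cell-like cells BC018473 had 0 UMIs against 531 (208 CPM), 89.8-fold lower at that limit (upper end of the log2 interval -6.18). Alveolar macrophage-like cells had 0.319 CPM (2 UMIs) against 106 CPM, and classical monocyte-like cells 0.947 CPM (10 UMIs) against 104 CPM. Even cluster 19, with the lowest LPS level, had 1 UMI (1.33 CPM) against 46 (53.8 CPM).

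Within the LPS library the levels of BC018473 could be ordered in part. Platelet or megakaryocyte-like cells (1945 CPM, interval 1753 to 2152) had the highest value, but their UMIs came from 24 of 59 cells. Counting intervals do not cover the spread between cells, so their place above cluster 2 and neutrophil-like cells is uncertain. Cluster 2 (1586 to 1713) and neutrophil-like cells (1582 to 1605) overlapped. Erythroid-like cells (interval 694 to 800) and cluster 22 (627 CPM, 554 to 706) followed and overlapped. Cluster 10 (358 CPM) came next, then T, vascular endothelial, dendritic and NK cell-like cells between 208 and 249.9 CPM. Mast or basophil-like cells (319 CPM, 195 to 492, from 20 UMIs) overlapped cluster 10 and these classes. Alveolar macrophage-like, interstitial macrophage-like and monocyte-like cells, at 104 to 109 CPM, could not be separated. In the 6 neutrophil-like clusters the LPS level ran between 842 CPM (cluster 8) and 2895 CPM (cluster 0), and the LPS_MCZ level between 2.12 and 14.0 CPM.

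**Figure D3:**
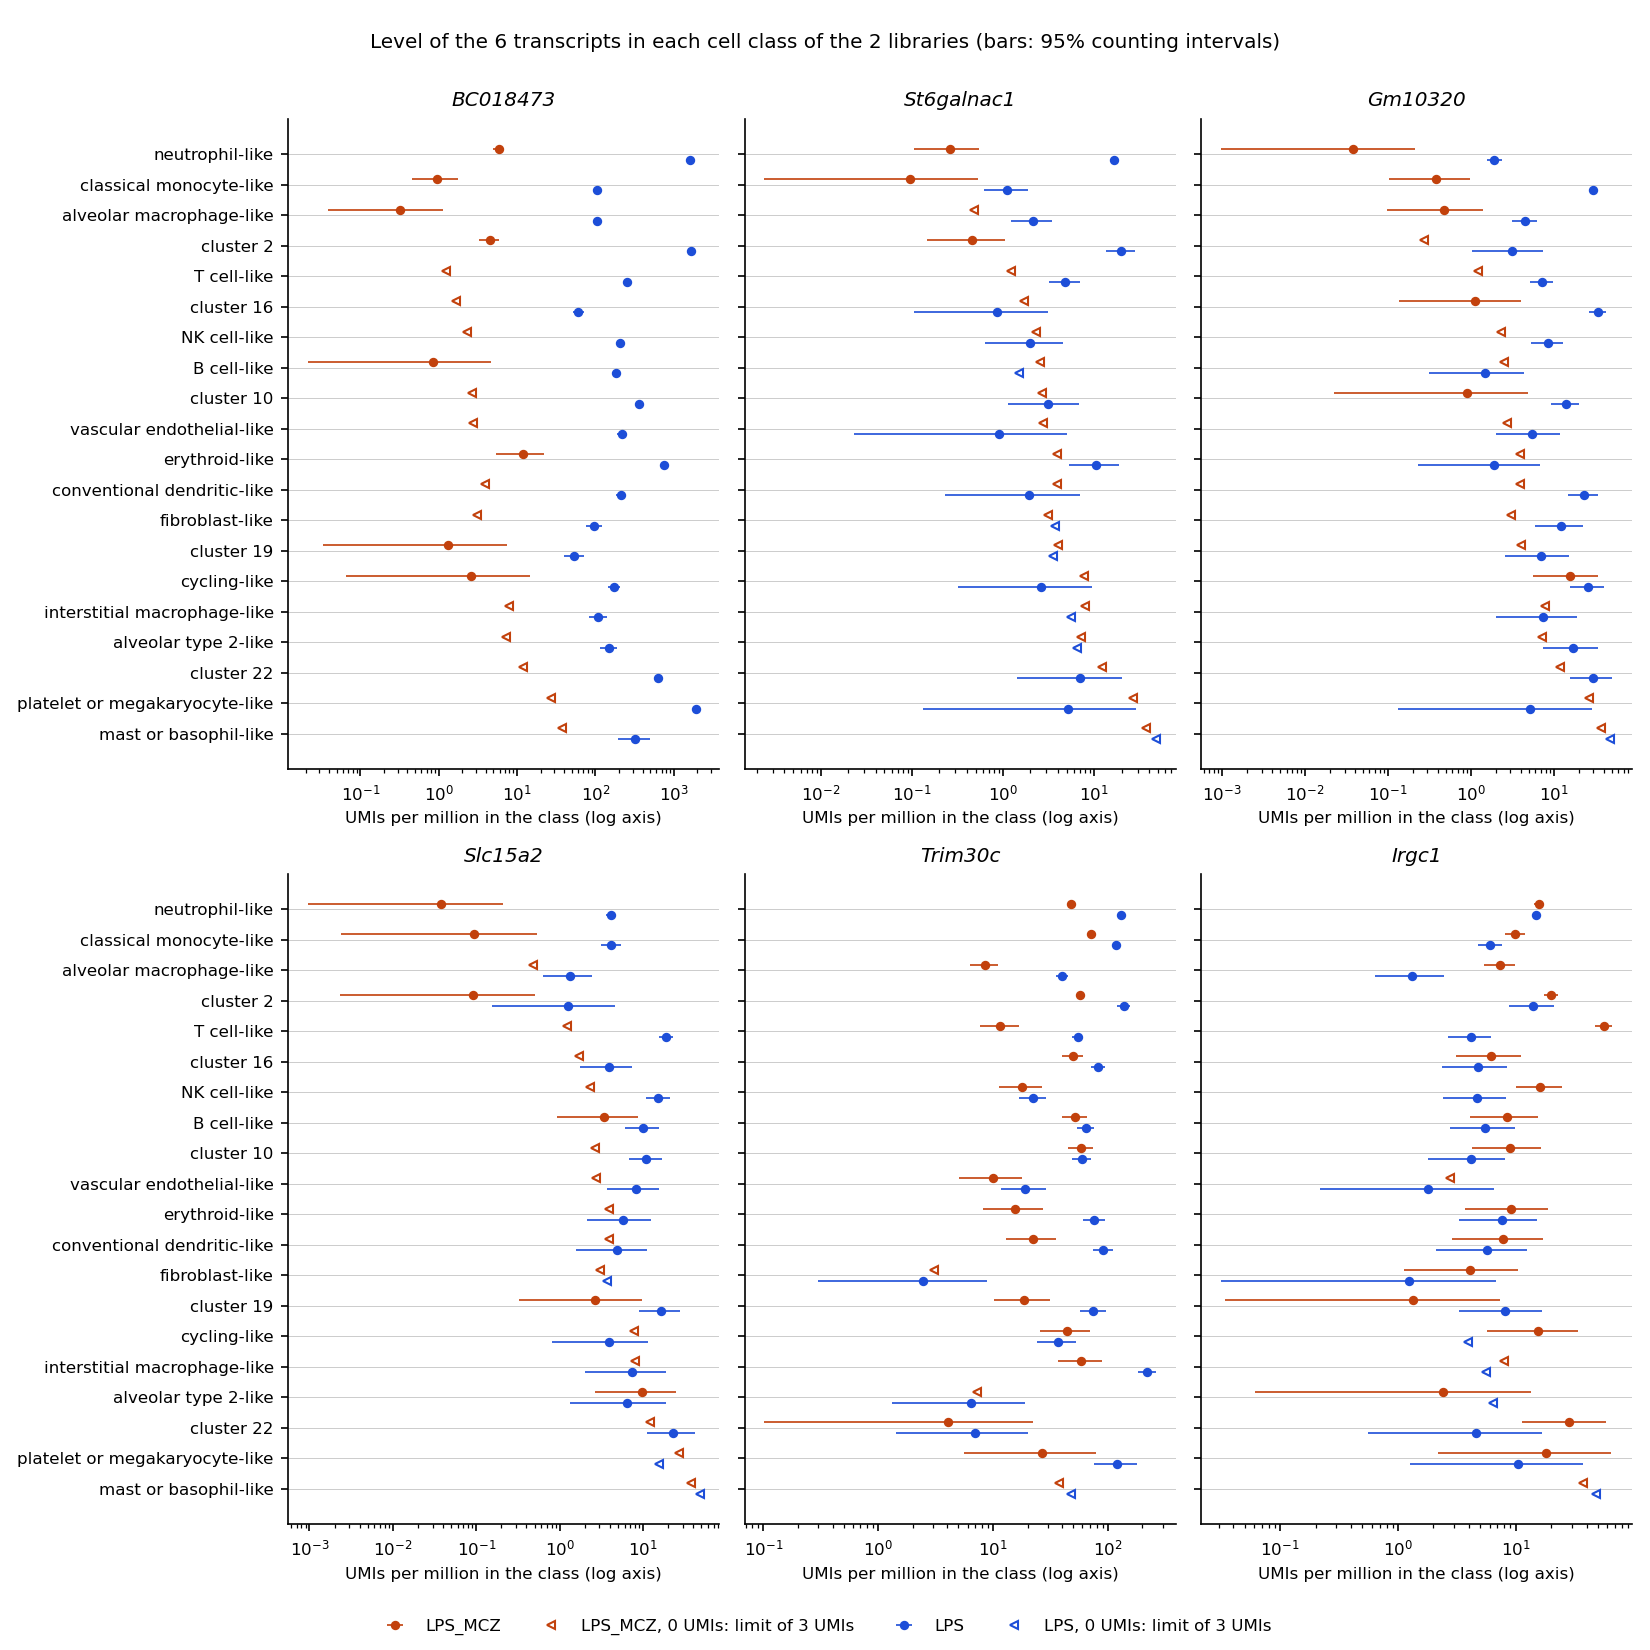
Level of each transcript in each cell class, in CPM of the class (log axis), LPS_MCZ above LPS; points are the libraries' values, bars 95% counting intervals and open triangles 0 UMIs drawn at the limit of 3 UMIs. BC018473 is separated in all 20 classes, Irgc1 mainly in T cell-like cells (56.1 against 4.15 CPM).

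Neutrophil RNA was found in all classes, and its values stand beside those of BC018473 for that reason. UMIs of all 8 neutrophil markers (S100a8, S100a9, Csf3r, Cxcr2, Retnlg, Mmp8, Mmp9 and Ly6g) occurred in each class of both libraries, except Ly6g, at 0 in mast or basophil-like LPS_MCZ cells. Their summed level was 18881 CPM in T cell-like LPS_MCZ cells against 18565 CPM in LPS cells, and outside the neutrophil-like class it ran between 3809.6 and 156778 CPM in the LPS_MCZ library against 5212 and 143811 CPM in the LPS library. LPS T cell-like cells with 10 or more BC018473 UMIs, 36 cells or 4.24% of the class, held 77.8% of its BC018473 and had 90725 CPM of these markers, against 7971 CPM in the 607 cells with none. Leaving out the cells with the highest doublet scores lowered the LPS level in T, NK and B cell-like cells. T cell-like cells then had 0 UMIs in the LPS_MCZ library against 93.2 CPM in the LPS library. NK cell-like cells had 0 UMIs against 135.5 CPM, where all cells of the class gave 208 CPM in the LPS library, and B cell-like cells 0.848 CPM against 75.6 CPM, where all cells gave 182 CPM in the LPS library. In the platelet or megakaryocyte-like class, the highest of the LPS library, 13 of its 59 LPS cells (22.0%) had 10 or more BC018473 UMIs and held 89.8% of them, and 35 cells had none. The neutrophil markers of that class summed to 156778 CPM in LPS_MCZ cells against 137926 CPM in LPS cells, and among LPS cells to 177932 CPM where 10 or more BC018473 UMIs were found against 64950 CPM where none was, with median depths of 5917 and 862 UMIs per cell. Per 1000 UMIs of S100a9, BC018473 had 14.4 UMIs in neutrophil-like LPS cells, 16 classes lay above this and 3 below, and the range was 5.74 to 54.5. The part of neutrophil RNA in the levels of other classes was not tested.

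With every cell thinned to 2000 UMIs, which leaves out 712 LPS_MCZ and 1301 LPS cells, 0.661% of LPS_MCZ and 51.9% of LPS neutrophil-like cells had a BC018473 UMI. Among T cell-like cells these were 0 of 275 LPS_MCZ cells and 12.8% of LPS cells. Before thinning the neutrophil-like shares were 1.37% and 61.7%, so the shares differed with and without thinning.

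St6galnac1 followed the same cells. In neutrophil-like cells it stood at 0.265 CPM (7 UMIs) in the LPS_MCZ library against 16.6 CPM (757 UMIs) in the LPS library, a log2 ratio of -5.97 (interval -7.29 to -4.92), and in cluster 2 at 0.455 CPM against 19.6 CPM. Together the neutrophil-like cells held 86.1% of its LPS UMIs. Its intervals were also apart in erythroid-like cells (0 UMIs against 11), T cell-like cells (0 against 28), alveolar macrophage-like cells (0 against 16) and monocyte-like cells (1 against 14). In the remaining 14 classes the counts were too low to separate the libraries, and in 6 of these it had no UMI in either library. After thinning, 0.0551% of LPS_MCZ and 3.27% of LPS neutrophil-like cells had a UMI of it, against 0 of 100 and 0 of 265 B cell-like cells.

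The chromosome 11 neighbours were found in the same LPS cells. In LPS neutrophil-like cells, 4474 of 7253 had BC018473, 548 had St6galnac1 and 539 had both, where the product of the 2 shares gives 338. Thus 98.4% of the cells with St6galnac1 also had BC018473, against 61.7% of the class. The shares for the other transcripts were 68 of 79 cells with Gm10320, 111 of 130 with Slc15a2, 399 of 557 with Irgc1 and 1419 of 2503 with Trim30c. Cells with more UMIs in all are likelier to hold any transcript, so depth bears on these counts.

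LPS neutrophil-like cells differed widely among themselves in BC018473. None was found in 2779 cells (38.3%), and 10 or more UMIs in 2243 cells (30.9%), which held 89.1% of the UMIs of the class. The level of St6galnac1 was higher at each step of this order: 0.606 CPM in cells with no BC018473, 5.07 with 1 to 2 UMIs, 16.6 with 3 to 9, 29.2 with 10 to 19, 34.9 with 20 to 49 and 55.7 with 50 or more. Median depth went along with it, at 5051 UMIs in the lowest group and 7252 in the highest, and the part of depth was not tested.

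Other genes differed less between these cells. Between cells with 10 or more BC018473 UMIs and cells with none, S100a9 stood at 112602 against 104122 CPM and Jmjd6, a further neighbour, at 9.52 against 8.41 CPM. Slc15a2 had 6.67 against 1.48 CPM, Gm10320 2.85 against 0.807 CPM and Irgc1 18.01 against 12.7 CPM. Trim30c ran the other way, at 102 against 169 CPM, and this was not particular to it. Its relatives were also lower in cells with 20 to 49 BC018473 UMIs than in cells with none. Trim30a stood at 602 against 844 CPM, Trim30b at 218 against 338 CPM and Trim30d at 53.3 against 104 CPM. St6galnac1, at 35.5 against 0.606 CPM, differed by far more than these, and it did so in all 6 neutrophil-like clusters and in cluster 2, with levels of 16.5 to 89.7 CPM against 0 to 1.40 CPM.

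**Figure D4:**
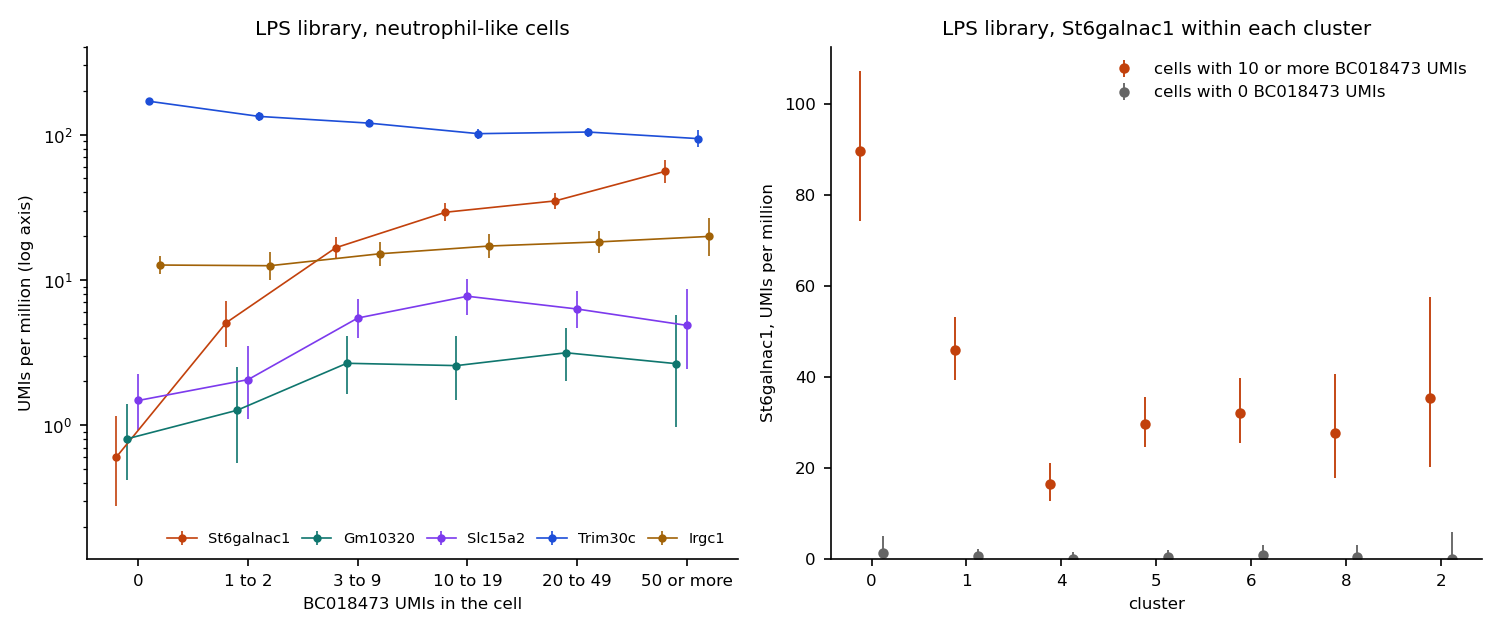
Left, level of the other 5 transcripts (CPM, log axis) in LPS neutrophil-like cells grouped by the BC018473 UMIs of the cell; right, level of St6galnac1 (CPM) in LPS cells with 10 or more and with 0 BC018473 UMIs in each of the 6 neutrophil-like clusters and in cluster 2; bars are 95% counting intervals. St6galnac1 runs between 0.606 and 55.7 CPM along the left axis, and is at 16.5 CPM or more against 1.40 CPM or less in each cluster.

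The few LPS_MCZ cells with these transcripts showed the same pairing. Of the 10 LPS_MCZ cells with St6galnac1, 8 also had BC018473, though only 80 of the 8314 cells did, and 4 cells with 10 or more BC018473 UMIs held 25.1% of all its LPS_MCZ UMIs. None of the 17 cells with Gm10320 and none of the 8 with Slc15a2 had it. Of the 80 cells with BC018473, 4 carried a barcode shared with the LPS library, and so did 3 of the 17 with Gm10320, against 243 of the 8314 cells in all. None of the 10 with St6galnac1 and none of the 8 with Slc15a2 did.

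Among named classes Gm10320 had its highest LPS level in monocytes, with overlapping intervals in cycling-like, dendritic-like and alveolar type 2-like cells. Classical monocyte-like cells had 0.379 CPM (4 UMIs) in the LPS_MCZ library against 29.9 CPM (374 UMIs) in the LPS library, a log2 ratio of -6.30 (interval -8.19 to -4.93), in a class where 9.80% of genes had intervals apart in that direction. Cluster 16 had 1.12 CPM against 34.1 CPM, and dendritic-like cells 0 UMIs against 24. Intervals were apart in 11 classes, all lower, and levels were lower in all 19 classes with UMIs.

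The neutrophil-like level of Gm10320 was low in both libraries, at 0.0378 CPM (1 UMI) against 1.93 CPM. Its log2 ratio of -5.67 there was -1.91 once free RNA was subtracted. The exception was the cycling-like class, whose cells are shallow, with 15.6 CPM (6 UMIs) in the LPS_MCZ library against 26.2 CPM (20 UMIs) in the LPS library. There the log2 ratio was -0.75 with an interval of -2.35 to 0.62, and a filter of at least 500 genes and 1000 UMIs per cell left no LPS_MCZ UMI in it.

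Sec61b itself, the gene that Gm10320 resembles, did not share the difference: it had 224 CPM in LPS_MCZ cells against 187 CPM in LPS cells, a log2 ratio of 0.26. For each 100 UMIs of Sec61b, monocyte-like cells had 0.0590 UMIs of Gm10320 in the LPS_MCZ library and 5.25 in the LPS library. In the LPS library this number was between 2.48 and 10.3 in all classes except B cell-like cells (0.546, from 3 UMIs) and mast or basophil-like cells, which had no Gm10320. How reads of one were assigned to the other was not tested.

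Among named classes Slc15a2 had its highest LPS levels in T and NK cell-like cells, whose intervals overlapped. Some classes with few UMIs overlapped both, such as interstitial macrophage-like (4 UMIs) and alveolar type 2-like cells (3 UMIs). B cell-like cells overlapped NK cell-like cells. T cell-like cells had 0 UMIs in the LPS_MCZ library against 110 (19.02 CPM) in the LPS library. That is 15.4-fold lower at the limit of 3 UMIs (upper end of the log2 interval -3.62). NK cell-like cells had 0 against 39 (15.2 CPM). Neutrophil-like cells had 0.0378 CPM (1 UMI) against 4.13 CPM (188 UMIs), and monocyte-like cells 0.0947 CPM (1 UMI) against 4.16 CPM (52 UMIs). Intervals were apart in 7 classes, all lower.

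The LPS level in T cell-like cells lay above that in neutrophil-like cells (intervals 15.6 to 22.9 against 3.56 to 4.76 CPM), and per 1000 UMIs of S100a9 there were 1.80 UMIs of Slc15a2 in T cell-like and 0.0374 in neutrophil-like LPS cells. In B cell-like cells Slc15a2 had 4 UMIs in the LPS_MCZ library against 20 in the LPS library, with overlapping intervals. Alveolar type 2-like cells had 4 UMIs (9.63 CPM) in 41 LPS_MCZ cells against 3 UMIs (6.45 CPM) in 48 LPS cells, too few to order. The carrier is known from such epithelium. Genes leading this class included Scgb1a1 and Scgb3a2, markers of club or secretory cells, so it may not hold alveolar type 2 cells alone. It was the only class in which the LPS_MCZ level was the higher one.

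Trim30c was lower in LPS_MCZ cells with intervals apart in 10 classes and higher in none. Interstitial macrophage-like cells had 58.5 CPM against 220.0 CPM, the highest level of Trim30c in the LPS library, and neutrophil-like cells 47.6 CPM against 131 CPM. T cell-like cells had 11.5 CPM (28 UMIs) against 54.8 CPM (317 UMIs), a log2 ratio of -2.25 (interval -2.86 to -1.69). The class ratios were not alike: monocyte-like cells had 71.4 CPM against 117 CPM, a log2 ratio of -0.71 (interval -0.84 to -0.59), which does not overlap that of T cell-like cells.

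In 3 classes with 23 or more UMIs of it in each library Trim30c was not separated. B cell-like cells had 51.7 CPM against 64.2 CPM, and cluster 10 had 57.9 CPM against 59.1 CPM. NK cell-like cells had 17.7 CPM against 22.3 CPM, from only 23 and 57 UMIs. The NK cell-like log2 ratio of -0.33 was 1.52 once free RNA was subtracted, so its sign depends on that step. The intervals of the log2 ratio in these classes reached down to -0.78, -1.10 and -0.49 and left out the ratio over all cells. Trim30c was thus not separated in every class. BC018473 was, but it was chosen for its low LPS_MCZ total, so this contrast is a description.

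Alveolar macrophage-like cells had 8.45 CPM of Trim30c in the LPS_MCZ library against 40.0 CPM in the LPS library. The class joined cluster 20 (168 LPS_MCZ and 58 LPS cells) and cluster 23 (97 and 302 cells), so its make-up differed between the libraries. Within cluster 23 Trim30c had 14.8 CPM against 45.8 CPM, a log2 ratio of -1.63 (interval -2.16 to -1.14). Within cluster 20 it had 4.06 CPM against 8.57 CPM and was not separated (log2 -1.08, interval -2.33 to 0.24).

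Irgc1 was higher in LPS_MCZ cells with intervals apart in 5 classes and lower in none. T cell-like cells had 56.1 CPM (136 UMIs) in the LPS_MCZ library against 4.15 CPM (24 UMIs) in the LPS library, a log2 ratio of 3.76 (interval 3.12 to 4.45), in a class where 5.15% of genes had intervals apart in the higher direction. NK cell-like cells had 16.2 CPM against 4.69 CPM (log2 1.79, interval 0.70 to 2.94), and alveolar macrophage-like cells 7.33 CPM against 1.33 CPM. Of the 2 alveolar macrophage-like clusters, cluster 23 had 8.55 against 0.944 CPM (log2 3.18, interval 1.83 to 4.77), while cluster 20 had 6.49 against 3.43 CPM and was not separated (log2 0.92, interval -0.62 to 2.91). Monocyte-like cells had 9.95 CPM against 6.07 CPM, and cycling-like cells 6 UMIs against 0.

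In neutrophil-like cells, which held more UMIs of Irgc1 than any other class, the level was the same within counting error, 15.9 CPM against 15.001 CPM (log2 0.08, interval -0.10 to 0.26). That interval does not overlap the one of T cell-like cells. Of the 6 neutrophil-like clusters, 5 had overlapping intervals, and cluster 8 had 19.3 CPM against 8.79 CPM. T cell-like cells thus had the highest value of Irgc1 in the LPS_MCZ library and were among the lower classes in the LPS library. In the LPS_MCZ library 2 classes with few UMIs overlapped them. These were cluster 22 (28.1 CPM, 11.3 to 58.0, 7 UMIs) and platelet or megakaryocyte-like cells (17.9 CPM, 2.17 to 64.8, 2 UMIs).

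T cell-like cells were also split by their own Cd4 and Cd8 UMIs, a split chosen after the values of the class had been seen. Irgc1 had 41.2 CPM in LPS_MCZ cells against 4.69 CPM in LPS cells where only Cd4 was found (102 and 325 cells). Cells with only Cd8 had 60.1 CPM against 3.81 CPM (73 and 124 cells), and cells with neither 70.4 CPM against 3.49 CPM (118 and 384 cells). All 3 subsets showed the difference. Slc15a2 had 0 UMIs in each LPS_MCZ subset, against 28.9 CPM in LPS cells with Cd4, 11.4 CPM with Cd8 and 12.0 CPM with neither. Trim30c was separated in the Cd8 subset (12.6 against 89.4 CPM) and in cells with neither (5.12 against 61.7 CPM) but not in the Cd4 subset (16.3 against 28.9 CPM).

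Of the genes beside the 4 nearly absent transcripts on the chromosome, none with at least 50 UMIs differed by as much as they did, apart from BC018473 and St6galnac1 themselves, though some were lower. Around BC018473 and St6galnac1, Jmjd6 had a log2 ratio of -0.15, Srsf2 0.10, Mettl23 0.05 and Snhg16 -0.17, and the nearest measured gene on the far side of the pseudogene, St6galnac2, another sialyltransferase, had -1.51 (56 UMIs against 209). Mxra7, next to St6galnac1 on its other side, was lower as well, at -0.76 (interval -1.18 to -0.35, 74 UMIs against 164). The 6 measured neighbours of Gm10320 lay between -0.08 and 0.40. The 8 of Slc15a2 lay between -1.35 (Stfa3, a cysteine protease inhibitor) and -0.03 (Eaf2), and Casr, the calcium-sensing receptor, which was below the minimum of 50 UMIs, was 8.02-fold lower (log2 interval -6.14 to -0.97, 2 UMIs against 21). Next to Trim30c, Trim30b had 0.09, Trim30a -0.36 and Trim30d 0.42, and next to Irgc1, Smg9 had -0.09 and Plaur -0.09, while Gm36159, which overlaps Irgc1 on the other strand, had -0.52, the sign opposite to that of Irgc1. The ratio of Irgc1 over all cells was near that of its neighbour Zfp428 (0.59, interval 0.12 to 1.07, 83 UMIs against 72). For Zfp428 the intervals of the libraries overlapped. Kcnn4, a nearer neighbour of Irgc1, was higher with intervals apart (0.48, interval 0.35 to 0.62, 915 UMIs against 857).

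**Figure D5:**
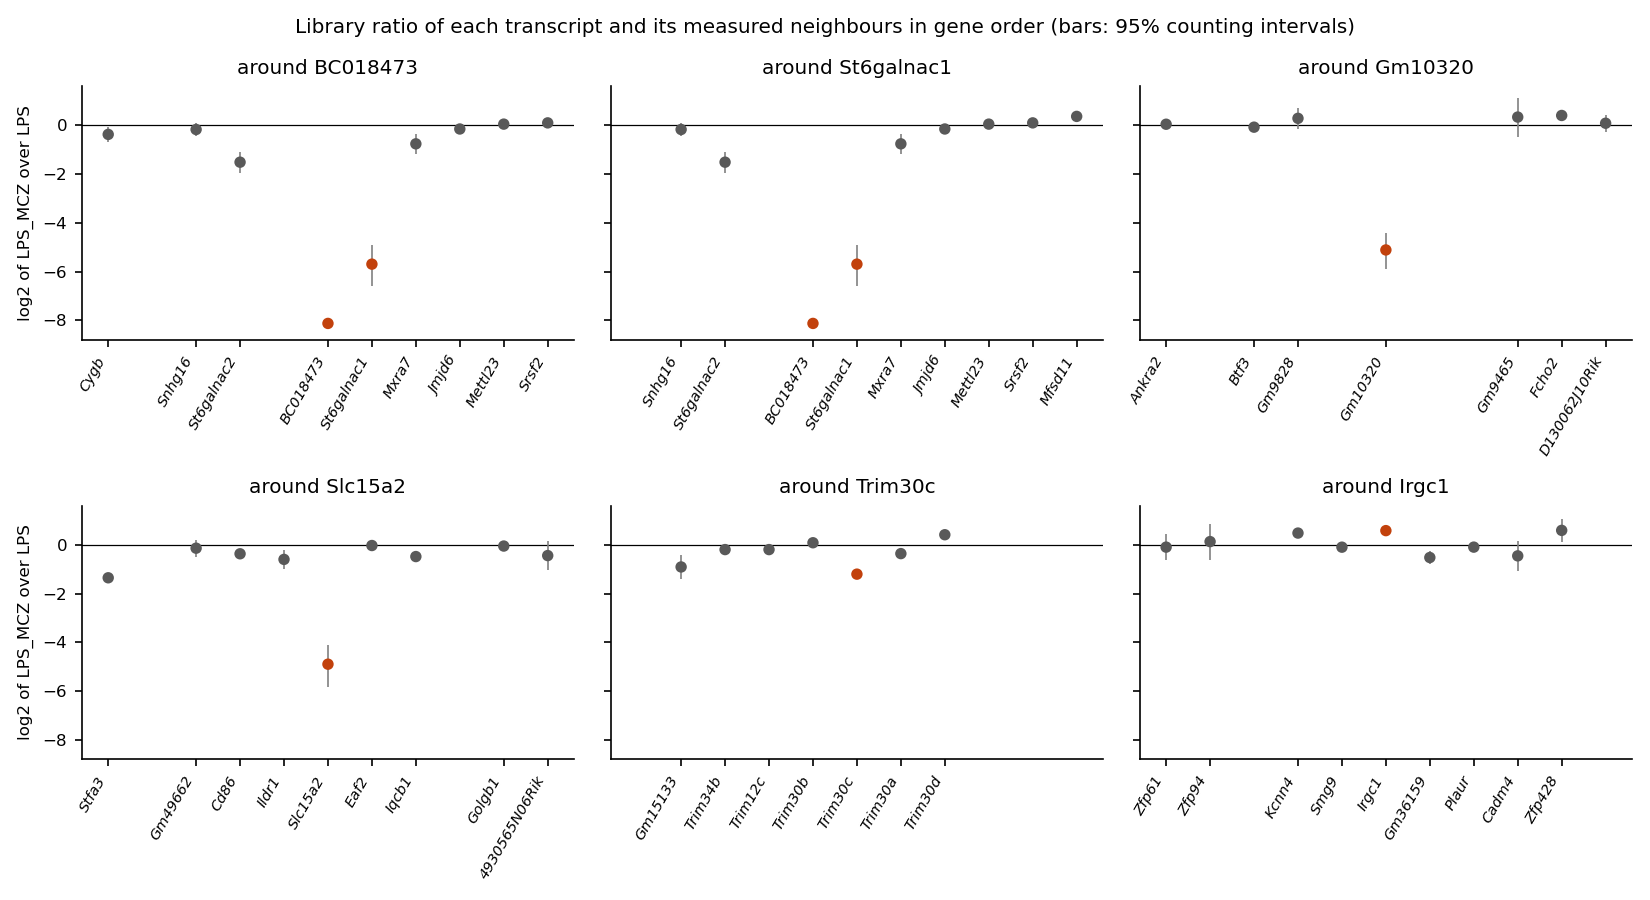
Log2 ratio of LPS_MCZ over LPS over all cells for each transcript (centre) and the measured genes among the 5 on either side, in chromosome order, with 95% counting intervals. BC018473 (-8.12) and St6galnac1 (-5.69) are next to each other, and the other neighbours lie between -1.51 and 0.59.

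Relatives by family gave few differences of comparable size. A gene was counted beyond 0.5 in log2(CPM + 1), which 4.94% of all genes exceeded upwards and 3.04% downwards (median 0.03). Of 23 measured genes of sialic acid and O-glycan transfer, 2 were higher and 4 lower (median 0.02). The lower ones were St6galnac1 (-3.19), St6galnac2 (-0.88), St6galnac3 (-0.62), which sialylates glycolipids and O-glycans, and St6gal1 (-0.68), which sialylates N-glycans. The higher ones were St3gal1 (0.58) and St3gal2 (0.51), which cap the core galactose of O-glycans.

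Of 6 measured genes of peptide transport and bacterial peptide sensing, Slc15a2 (-2.49) was the only one beyond the limit (median -0.05). Slc15a3, a lysosomal carrier of the same family, had 386 CPM in LPS_MCZ cells against 460 CPM in LPS cells, and in T cell-like cells it had 81.6 against 85.1 CPM where Slc15a2 had none in the LPS_MCZ library. Nod2, the sensor of muramyl dipeptide, had a log2(CPM + 1) difference of 0.29. The counts of the list therefore rest on its member alone.

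Of 11 measured genes of the TRIM30 cluster, Trim30c (-1.18) was lower and Trim5 (0.76) higher (median -0.09). In T cell-like cells Trim30a had 311 CPM against 403 CPM, Trim30b 32.2 against 27.8 CPM and Trim30d 35.0 against 17.1 CPM. The close relatives thus lay on both sides of equal levels in the class where Trim30c was at 11.5 against 54.8 CPM. Of 8 immunity-related GTPases, Irgc1 (0.54) was the only one beyond the limit (median -0.03). In T cell-like cells Irgm1 had 87.8 against 130.0 CPM (log2 -0.57, interval -0.79 to -0.35), Irgm2 94.0 against 163 CPM (log2 -0.80, interval -1.01 to -0.59) and Igtp 193 against 276 CPM (log2 -0.52, interval -0.67 to -0.37). Ifi47 had 168 against 246 CPM, Tgtp1 47.4 against 69.5 CPM and Tgtp2 26.8 against 46.0 CPM there. All 6 of these GTPases had intervals apart in the direction opposite to that of Irgc1, as did 4.97% of genes in the class. Irgq, which had 208 UMIs in all LPS_MCZ cells and 247 in all LPS cells, is not given for this class.

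The pattern of each transcript over the 20 classes of both libraries, 40 points in all, was compared with that of 12343 genes by Pearson's r of log2(CPM + 1). The points share libraries, depth and free neutrophil RNA, so r is a description. In addition, 20 of the 40 points are LPS_MCZ classes, where the 4 nearly absent transcripts are near 0 by the totals that chose them, so likeness among these 4 is built in. Among these genes St6galnac1 was most like BC018473 (0.76), followed by Gm10320 (0.68) and AC168977.1 (0.65), and BC018473 was in turn the gene most like St6galnac1 and Gm10320. For Slc15a2 they were Tmsb15b1 (0.66), BC018473 (0.60) and Gm10320 (0.59). Trim30c was most like A530032D15Rik (0.82), Gm46224 (0.75) and Nckap1l (0.74), and Irgc1 like Padi4 (0.70), Hk1os (0.68) and Cdh23 (0.67).

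Over the 20 LPS classes alone, a comparison added after the values had been seen, the likest genes were others. BC018473 was most like G0s2 (0.93), Cxcr2 (0.92), a chemokine receptor of neutrophils, and Antxr2 (0.91). St6galnac1 stood at rank 63 for BC018473 (0.81), and BC018473 at rank 11 for St6galnac1, whose likest gene was Gm15684 (0.88). BC018473 had an r of -0.40 with Gm10320 and of -0.20 with Slc15a2. Gm10320 was most like Prkag2 (0.87) and Slc15a2 most like Arhgap27 (0.80), so that in the LPS classes these patterns were not those of BC018473. Trim30c was again most like A530032D15Rik (0.87), and Irgc1 was most like Gapt (0.84).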

How the data were processed

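The labels and protocols describe 10x Genomics 3′ version 3 libraries of lung cells freed with collagenase, Dispase and trypsin. The deposited matrices hold raw UMI counts per gene and barcode, made by the authors with Cell Ranger 7.0.0, per the file headers; bcl2fastq 2.20 and the mm10 build (GRCm38) are given by the submitters' processing notes. The handling of intronic reads was not stated. The LPS_MCZ matrix held 8500 barcodes and 68467793 UMIs, and the LPS matrix 12577 barcodes and 90597705 UMIs.

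Cells with at least 200 genes, 500 UMIs and at most 20% mitochondrial UMIs were kept. Scrublet (scanpy 1.11.5) scored doublets and called 0 LPS_MCZ and 2 LPS cells against expected rates of 6.65% and 9.66%, so the caller did not work; removing 553 and 1167 cells of the highest scores was an alternative. Leiden clustering (igraph 0.11.9, resolution 1) of both libraries together, with no batch correction, gave 26 clusters, named from markers (at least 3 at a log2 ratio of at least 1). A bar on names whose leading genes went against them was set after the clusters had been seen. UMIs were summed per class and library. Intervals are exact Poisson, Clopper-Pearson or conditional binomial intervals (scipy 1.17.1) at 95%, and the calculations were tested on simulated data. No test between groups was possible.

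The 6 members, the 4 gene lists and the settings were chosen with earlier results of these data known. Named were the members, the list genes by family, 5 neighbours on each side, genes beyond 16-fold, the nearest genes on both sides of that limit, and the 3 genes of likest pattern. Of 32285 features, 32158 were matched to GENCODE M21. Sequences were read from the reference genome and compared with blastn 2.17.0.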

Additional observations from a re-analysis of the deposited data

How the results depend on the processing

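No paired analysis was possible because each group had 1 library. Every ratio over all cells kept its direction under each alternative run. Thinning to 2000 UMIs per cell gave Trim30c -1.33. Without neutrophil-like cells and cluster 2, an alternative chosen after seeing the data, BC018473 stood at -7.84, Trim30c at -0.91 and Irgc1 at 1.51. The 11 genes beyond 16-fold became 28 with a minimum of 10 UMIs, 7 with a minimum of 200 UMIs and 20 with an 8-fold limit. All deposited barcodes, totals without the 20 most abundant genes, scaling by the median gene ratio, a stricter cell filter, removal of the highest doublet scores and removal of shared barcodes moved no ratio over all cells beyond its counting interval. Of levels by class, 9 moved with clustering at resolution 0.5, 15 with the doublet scores removed and 8 with the stricter filter. Of ratios by class, 3 moved with the coarser clustering and 12 when free RNA was subtracted. Of these 12, 8 were of BC018473, all still lower in LPS_MCZ, the largest move being in fibroblast-like cells (-3.82 against -4.98 unsubtracted) and T cell-like cells going to -7.31 against -7.66. Gm10320 in neutrophil-like cells became -1.91 (-5.67 before), and Trim30c became -3.53 (-2.25 before) in T cell-like, -5.45 (-2.24 before) in alveolar macrophage-like and 1.52 (-0.33 before) in NK cell-like cells, where the sign changed; the cause was not tested. Of shares of cells, 44 moved between thinning to 2000 and to 1000 UMIs. Counts near 0 in classes of under 100 cells limit what can be said there, and intervals cover counting error, not mice.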
